A study of Canis lupus familiaris with 6 samples.

Results

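NEGR1, LSAMP, NTM and OPCML encode the IgLON proteins, short cell adhesion molecules with 3 immunoglobulin domains and a glycosylphosphatidylinositol (GPI) tail that holds them in the outer leaflet of the cell membrane. They are best known from the nervous system, where they bind one another within and between neurons and shape neurite growth and synapse formation. Having no intracellular part, they act through partners in the membrane, and proteases of the ADAM family can release them from the surface. OPCML is also studied as a tumour suppressor whose promoter is methylated in many human carcinomas, and variants near NEGR1 have been linked to human body weight. The family is completed in mammals by IGLON5, which is described beside the 4 members.

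The members are the 4 genes among 15947 that had at least 1 probe set annotated to them alone, each represented by its brightest probe set, chosen by the mean over the 6 arrays. That choice had an effect only for LSAMP, with 3 probe sets, and OPCML, with 2, since NEGR1 and NTM have 1 each. NEGR1 came into view through its difference between TGFb and untreated arrays and between withdrawal and TGFb arrays, so these differences, and the one between 5-AZA and untreated arrays that contains the first, are given as a description with no test. The difference between withdrawal and untreated arrays is the sum of the 2 that brought NEGR1 into view. Its interval and p-values are therefore no independent test. The difference between 5-AZA and TGFb arrays shares the TGFb arrays with the choice, so the same limit holds for it. LSAMP, NTM and OPCML came in through family membership.

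The samples were 6 single-colour Affymetrix arrays of total RNA from MDCK, an established epithelial cell line from dog kidney, grown in serum-containing DMEM. Untreated cells gave 2 arrays, and cells subcultured for 30 days with TGFb (transforming growth factor beta, a signal that drives epithelial cells towards a mesenchymal state) at 5 ng/ml gave another 2. A single array each came from TGFb-treated cells exposed to 5-AZA, the usual short name of a drug class that blocks DNA methylation, for 72 hours (the AZA array) and from cells 30 days after TGFb was taken away (the withdrawal array). The labels do not say whether TGFb stayed on the cells during 5-AZA, which 5-AZA compound was used, or whether replicate arrays stem from independent cultures, so p-values rest on a spread that may be technical.

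Values are signals on a scale read as log2, where a difference of 1 is a 2-fold change. The medians of the 6 arrays lay between 4.97 and 5.01, and pairs of arrays correlated at 0.947 to 0.987 over all 32293 probe sets. No detection limit is given, so a dim probe set cannot be told from one that reads background. In the untreated arrays CDH1, EPCAM, KRT18 and KRT19, the brightest of 11 measured kidney epithelial markers, read from 10.2 to 11.6. KRT8 and PAX8 read from 5.7 to 5.9 there, and CDH16, the kidney-specific cadherin, read 4.58 and 5.05. Of these 11 markers 6 lay above the array median on all 6 arrays. Of 12 measured neuronal markers 2, SYP and MAP2, lay above the array median on all 6 arrays, as did 1 of 5 glial markers, SOX10, and 3 of 9 fibroblast and mesenchyme markers. None of 6 leukocyte or 5 endothelial markers did.

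NEGR1 was the single IgLON gene whose signal moved by more than 1 log2 unit over the 6 arrays. It read 3.56 and 3.59 on the untreated arrays, 9.48 and 9.51 on the TGFb arrays, 10.31 on the AZA array and 4.21 on the withdrawal array. The TGFb and AZA arrays thus stood far above the other 3, with no overlap, and the members of each pair lay close together. The gap between replicates was 0.027 for the untreated and 0.037 for the TGFb arrays, against medians of 0.204 and 0.181 over all probe sets. NEGR1 was chosen by differences between these same arrays, so the separation and the small gaps are a description, not a test.

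On group means, NEGR1 stood at 3.58 ± 0.02 (SD, n = 2) without TGFb and 9.49 ± 0.03 (SD, n = 2) after 30 days of it. The difference was 5.92 ± 0.14 (standard error of the fit), a 60.5-fold higher signal. The untreated level may be background, so this and the folds over untreated or withdrawal cells are lower bounds for the RNA where it is. It ranked 4th from the top among the 15947 genes. Only 15 probe sets of 32293 had a wider range over the 6 arrays than the 6.75 log2 units of NEGR1, and the median range was 0.63. In bulk RNA a larger share of cells that express a gene and more RNA per cell cannot be told apart.

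**Figure D1:**
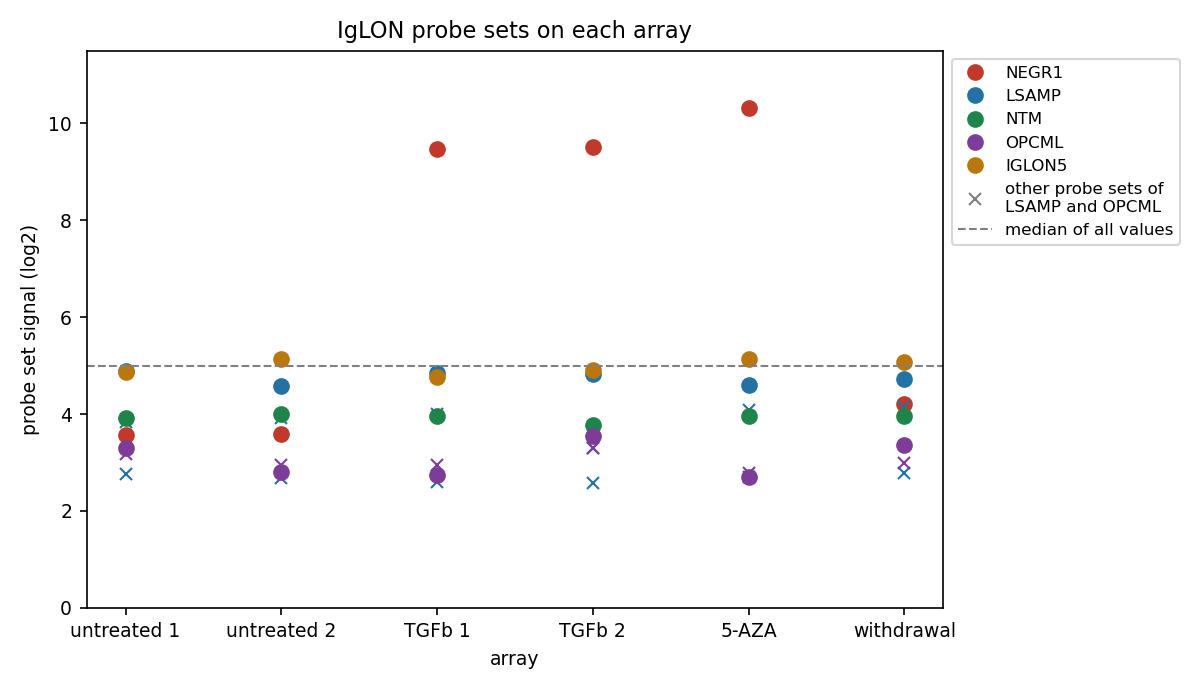
Signal (log2, vertical axis) of every IgLON probe set on each of the 6 arrays (horizontal axis). Filled circles are the brightest probe set of a gene, crosses the other probe sets of LSAMP and OPCML, and the dashed line is the median of all values, 4.99. NEGR1 stands at 9.48 to 10.31 on the TGFb and AZA arrays and at 3.56 to 4.21 on the other 3, while no other IgLON probe set spans more than 0.851 over the arrays.

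After withdrawal the NEGR1 signal was 5.28 ± 0.17 lower than under TGFb, or 38.9-fold lower. The withdrawal array still read 0.62 above the higher of the 2 untreated arrays. The difference from their mean is the sum of the 2 by which NEGR1 came into view, so its interval and p-values carry that choice. It was 0.64 ± 0.17, or 1.56-fold higher (95% interval 1.14 to 2.11). This did not pass limma's test over all probe sets (adjusted p = 0.400, unadjusted p = 0.0138). On that contrast limma called 0 of 32293 probe sets, a background of 0%, although 3154 had an unadjusted p under 0.05, and 3.92% of all probe sets had a more positive difference than NEGR1.

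With 5-AZA the NEGR1 signal was higher still. This comparison uses the TGFb arrays by which NEGR1 came into view, so its interval and p-values are no independent test. The AZA array read 0.80 above the higher TGFb array and 0.82 ± 0.17 above their mean, which is 1.76-fold (95% interval 1.30 to 2.39). The difference did not pass over all probe sets (adjusted p = 0.135 with limma, unadjusted p = 0.00501), and 4.43% of all probe sets had a more positive one. Against untreated cells the AZA array stood 6.73 ± 0.17 higher, or 106-fold. In order of level, NEGR1 was lowest in untreated cells, followed by withdrawal, TGFb and 5-AZA. The neighbouring steps in that order at the bottom and at the top were not called, and 1 array each carries the AZA and withdrawal values.

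None of LSAMP, NTM and OPCML was called in any of the 5 comparisons, on any of their 6 probe sets. Between TGFb and untreated cells limma called 0.691% of all probe sets higher and 0.954% lower. The shares were 0.369% and 0.471% between withdrawal and TGFb, 0.855% and 0.189% between 5-AZA and TGFb, and 2.24% and 1.41% between 5-AZA and untreated cells. With backgrounds this low, an absence of calls among 3 genes is what most genes show, so the intervals of the differences are given for each.

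LSAMP, which encodes the limbic system-associated membrane protein, an adhesion molecule of limbic neurons, read 4.89 and 4.58 on the untreated arrays, 4.84 and 4.83 on the TGFb arrays, 4.59 on the AZA array and 4.73 on the withdrawal array. The TGFb values lay between the 2 untreated ones, and the AZA and withdrawal values did too. The difference under TGFb was 0.10 ± 0.17 (95% interval −0.34 to 0.54, adjusted p = 0.847), and for 5-AZA against TGFb it was −0.24 ± 0.21 (−0.78 to 0.29, adjusted p = 0.693). Its other 2 probe sets differed by −0.24 ± 0.26 and −0.13 ± 0.14 under TGFb, so the sign depended on the probe set taken.

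NTM encodes neurotrimin, which promotes or restrains neurite outgrowth depending on the neuron type. It read 3.92 and 3.99 without TGFb, 3.97 and 3.77 with it, 3.96 with 5-AZA and 3.96 after withdrawal. These values span 0.22 log2 units, a range that only 4.0% of all probe sets undercut, and the groups overlap. The difference under TGFb was −0.08 ± 0.16 (95% interval −0.48 to 0.31, adjusted p = 0.862). Against TGFb the 5-AZA difference was 0.09 ± 0.19 (−0.40 to 0.57, adjusted p = 0.895).

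OPCML encodes the opioid-binding cell adhesion molecule. Its signal was 3.31 and 2.81 on the untreated arrays, 2.74 and 3.54 on the TGFb arrays, 2.70 on the AZA array and 3.35 on the withdrawal array. Replicates differed more than conditions did: the TGFb arrays were 0.80 apart, a gap that 4.58% of probe sets exceeded, and they enclosed both untreated values. OPCML differed by 0.08 ± 0.33 under TGFb (95% interval −0.75 to 0.92, adjusted p = 0.939). With 5-AZA it was −0.44 ± 0.40 against TGFb (95% interval −1.47 to 0.58, adjusted p = 0.714), and the second probe set gave −0.34 ± 0.23 (−0.94 to 0.26, adjusted p = 0.614). The AZA array was the lowest of the 6 on both probe sets, but 1 TGFb array lay close above it on the brighter one (2.70 against 2.74).

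IGLON5, the fifth family gene, whose protein is the target of autoantibodies in a human neurological disease, read 4.87 and 5.13 without TGFb, 4.78 and 4.90 with it, 5.15 with 5-AZA and 5.08 after withdrawal. Its TGFb difference of −0.16 ± 0.17 was not called (95% interval −0.59 to 0.27, adjusted p = 0.744).

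**Figure D2:**
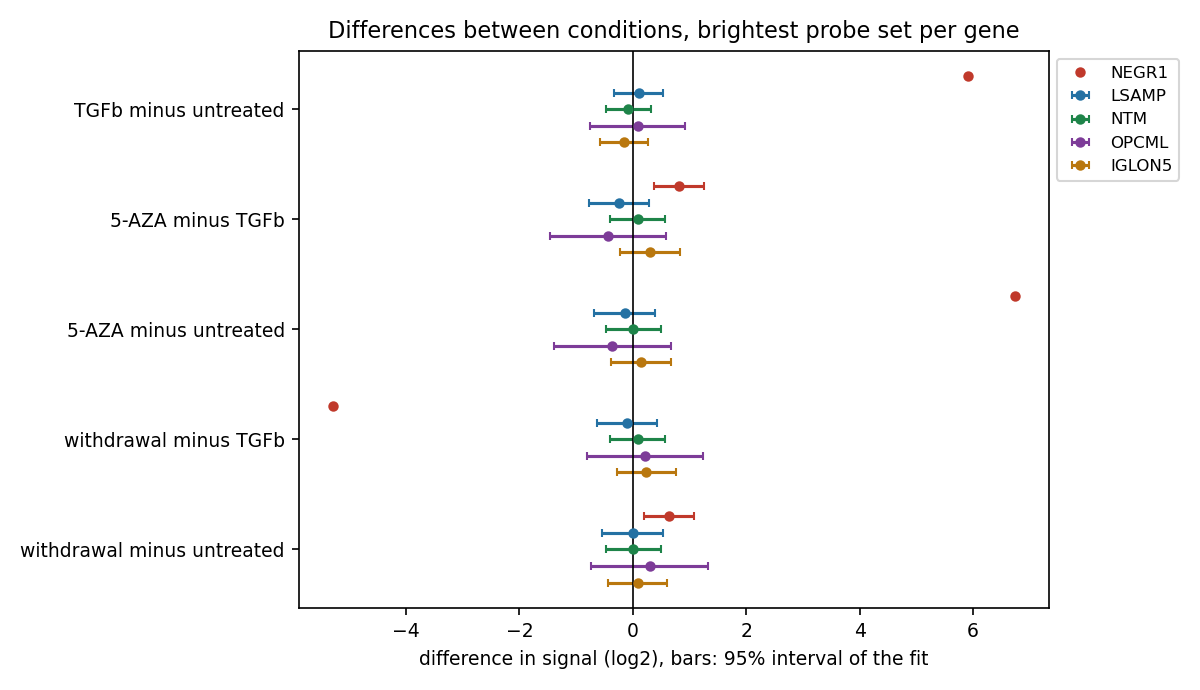
Difference in signal (log2, horizontal axis) for 5 comparisons between conditions (vertical axis), 1 point per IgLON gene from its brightest probe set, with bars for the 95% interval of the limma fit, left out for NEGR1 where the gene was chosen by the difference or the comparison contains it. The NEGR1 bar for withdrawal minus untreated is drawn, although that difference is the sum of those by which the gene was chosen. Its bar for 5-AZA minus TGFb is drawn too, although that comparison shares the TGFb arrays with the choice. NEGR1 lies at 5.92 for TGFb minus untreated, 6.73 for 5-AZA minus untreated and −5.28 for withdrawal minus TGFb. It lies at 0.82 for 5-AZA minus TGFb and 0.64 for withdrawal minus untreated. The intervals of LSAMP, NTM, OPCML and IGLON5 all include 0.

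The genes next to each IgLON gene were read from the RefSeq gene order of the dog assembly UU_Cfam_GSD_1.0, which may not be the build behind the array, so no coordinate is given. Up to 3 protein-coding genes on each side were taken, and 16 of the 25 distinct genes had a probe set of their own. None of the 16 was called in any comparison. Of all probe sets 0.691% were called higher and 0.954% lower under TGFb, and 2.24% and 1.41% between the AZA and untreated arrays. With shares this low, an absence of calls among the 16 is what most genes show. Of the genes beside NEGR1, LRRIQ3 read 1.93 to 2.27 on all 6 arrays, the splicing-factor gene ZRANB2 8.28 to 8.57 and the prostaglandin receptor gene PTGER3 3.15 to 3.71. Their TGFb differences were −0.04 ± 0.18, −0.10 ± 0.15 and 0.20 ± 0.23. NEGR1 was chosen by its own TGFb difference, so its larger size beside these genes is a description, not a test. LRRIQ3 and PTGER3 read below the array medians and may be background.

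OPCML and NTM lie in tandem, separated in this order by 1 uncharacterised gene. Around the pair, JAM3, IGSF9B, SPATA19, SNX19 and ADAMTS15 differed under TGFb by −0.17 to 0.10. The largest difference among all measured neighbours was at IGSF11, the adhesion gene beside LSAMP. It read 5.14 and 3.93 untreated, 4.53 and 5.28 with TGFb, 7.50 with 5-AZA and 4.63 after withdrawal. The AZA array stood well above the rest, yet the difference from TGFb, 2.59 ± 0.58, was not called (adjusted p = 0.148), as the replicates of both groups were far apart.

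**Figure D3:**
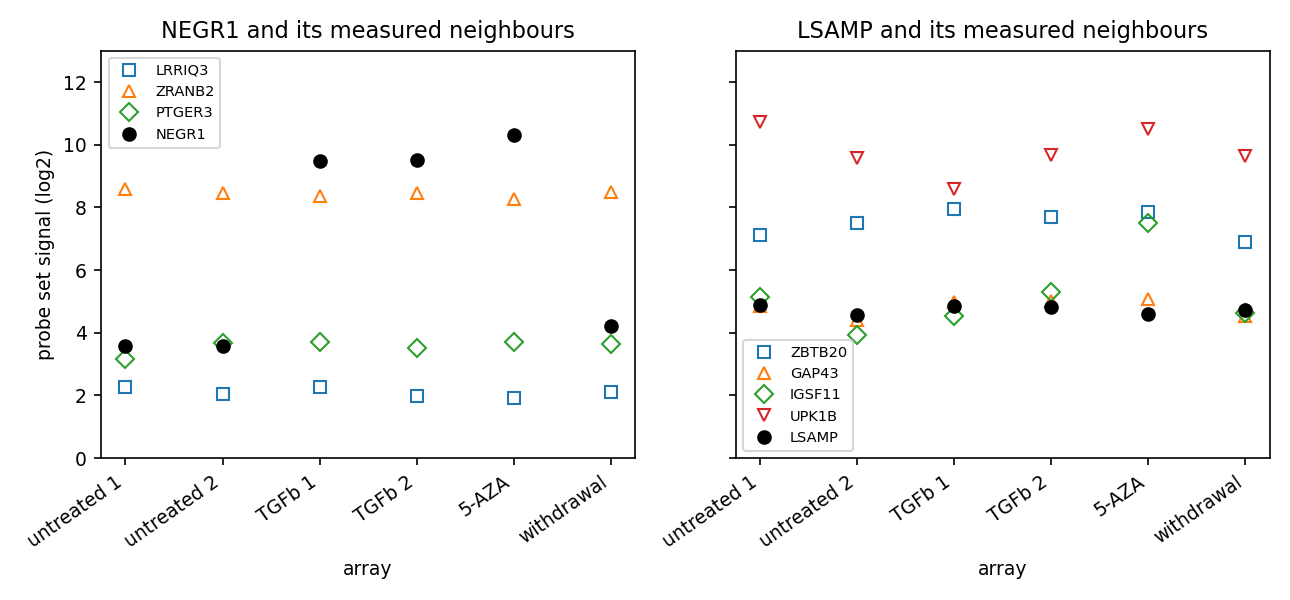
Signal (log2, vertical axis) on the 6 arrays (horizontal axis) for NEGR1 with its 3 measured neighbours (left) and LSAMP with its 4 (right). Filled circles are the IgLON gene and open symbols its neighbours. NEGR1 reaches 10.31 while LRRIQ3, ZRANB2 and PTGER3 stay level, and beside a level LSAMP the IGSF11 signal stands at 7.50 on the AZA array.

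Other genes were then compared with NEGR1 for how their signal ran over the 6 arrays, each centred on its own mean. Among 15946 genes the root-mean-square distance to NEGR1 had a median of 3.02 log2 units. The 6 nearest were SPARC at 0.41, GPNMB at 0.46, BAMBI at 0.46, TCF4 at 0.47, DCN at 0.65 and ZEB1 at 0.67, with Pearson r from 0.983 to 0.998 over the 6 arrays, given as a description since the arrays form few groups. SPARC and DCN encode matrix proteins, GPNMB a membrane glycoprotein, BAMBI a decoy receptor of the TGFb family, and TCF4 and ZEB1 transcription factors known for repressing E-cadherin.

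The likeness was not the same in every condition. NEGR1 on the withdrawal array stood 0.64 above its untreated mean, while SPARC (−0.06), GPNMB (−0.20), BAMBI (−0.57) and ZEB1 (−0.26) stood at or below theirs and TCF4 (0.33) and DCN (0.81) above. On the AZA array the step above TGFb was 0.82 for NEGR1, 0.67 for SPARC, 0.56 for GPNMB, 0.92 for BAMBI, 0.83 for TCF4, 0.97 for DCN and 0.09 for ZEB1. No difference between genes was tested here.

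**Figure D4:**
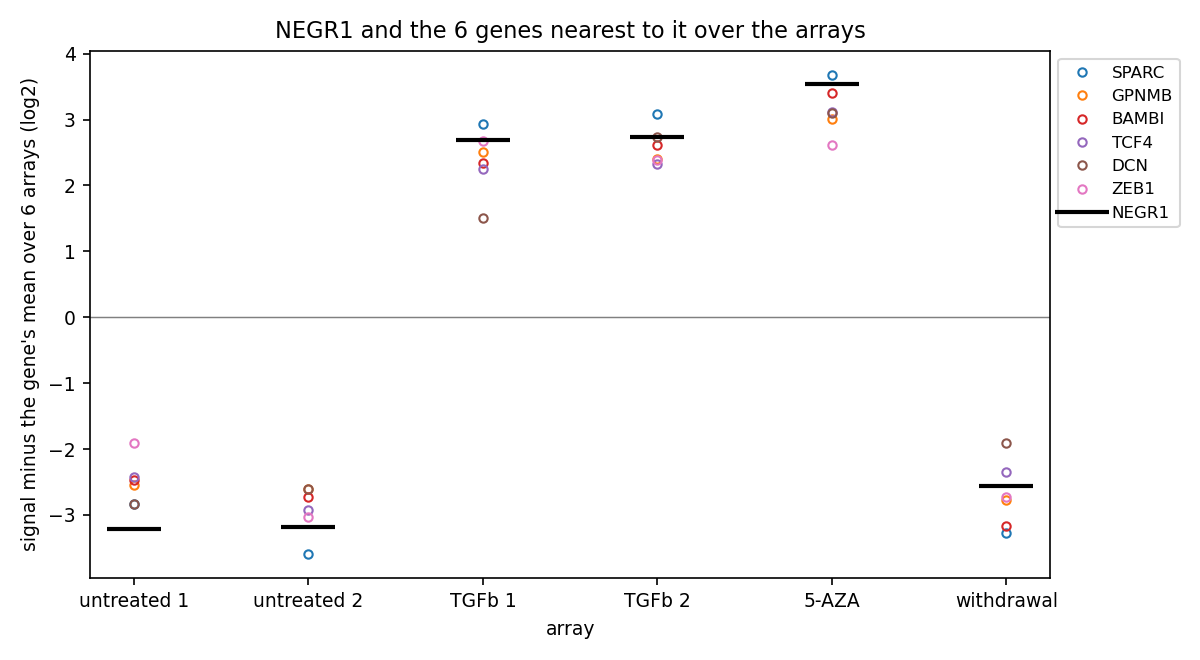
Signal minus the gene's own mean over the 6 arrays (log2, vertical axis) on each array (horizontal axis) for NEGR1 (black bars) and the 6 genes nearest to it (open circles). All 7 lie above their mean on the TGFb and AZA arrays and below it on the untreated and withdrawal arrays. The 6 genes were picked for nearness over these same arrays, so this likeness follows from the choice.

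Markers of other cell types were read beside these results. The mean of 12 neuronal markers was 4.29 and 4.20 on the untreated arrays, 4.18 and 4.11 on the TGFb arrays, 4.38 on the AZA array and 4.47 on the withdrawal array. None of the 12 was called under TGFb, where 0.691% of all probe sets were called higher and 0.954% lower. SNAP25, a synaptic vesicle fusion gene, read 4.61 and 4.71 untreated, 3.93 and 4.41 with TGFb, 5.99 with 5-AZA and 6.28 after withdrawal, and rose between TGFb and withdrawal by 2.12 ± 0.26 (adjusted p = 0.0484). MAP2 read 7.29 and 7.17 untreated and 5.87 with 5-AZA, a difference that was not called (adjusted p = 0.127). Between withdrawal and TGFb 0.369% of all probe sets were called higher. The part of the neuronal markers in the NEGR1 result was not tested. The mean of 9 fibroblast and mesenchyme markers did move with NEGR1, from 4.92 and 4.66 untreated to 6.89 and 6.93 with TGFb, 7.39 with 5-AZA and 5.26 after withdrawal. Of these 9, COL1A2, COL3A1, DCN, LUM and COL1A1 rose under TGFb and PDGFRA fell, so the mean does not stand for every marker. PDGFRB (−0.062) and COL6A3 (0.001) were level under TGFb, and POSTN read 3.14 to 3.54 throughout. The part of these 9 in the NEGR1 result was not tested either. The 5 endothelial markers were level except for PECAM1, which read 6.57 on the AZA array and 3.24 to 3.62 elsewhere.

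The wider group of immunoglobulin-superfamily adhesion genes, to which the IgLON genes belong, gave 0 calls among 40 measured genes under TGFb and 0 after withdrawal. Over all probe sets the shares called higher and lower were 0.691% and 0.954% under TGFb. Between withdrawal and TGFb they were 0.369% and 0.471%, so an absence of calls is what most genes show. The median difference of the 40 genes under TGFb was −0.04, against −0.01 over all probe sets, and 15 of 40 lay higher. ROBO2, a receptor for Slit guidance cues, had the largest one at 2.09 ± 0.58 (adjusted p = 0.199), with TGFb arrays at 7.06 and 5.28. With 5-AZA 1 of the 40 rose against TGFb, where 0.855% of all probe sets were called higher. This was ROBO1, another Slit receptor, at 2.97 ± 0.32 (adjusted p = 0.0343), which read 2.74 to 3.48 on the other 5 arrays and 5.90 on the AZA array. With the mean of the ROBO1 probe sets the difference was 1.59 and the call was lost (adjusted p = 0.0719). Against untreated cells ROBO1, the neuronal adhesion gene NRCAM (1.67 ± 0.27) and CADM1 (1.18 ± 0.18), an epithelial and neuronal adhesion molecule, rose on the AZA array, 3 of 40 where 2.24% of all probe sets were called higher. With the mean of its probe sets ROBO1 differed from untreated by 1.64.

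Among 32 other genes of GPI-anchored surface proteins 1 rose under TGFb and none fell, where 0.691% of all probe sets were called higher and 0.954% lower. The gene that rose was SEMA7A, a GPI-anchored semaphorin, which read 6.05 and 5.48 untreated and 8.45 and 7.74 with TGFb, a difference of 2.33 ± 0.32 (adjusted p = 0.0474). After withdrawal SEMA7A read 5.45, and its difference of −2.64 ± 0.39 from TGFb was not called (adjusted p = 0.0758). The SEMA7A call was lost with quantile normalization and with robust moderation. With 5-AZA, ART3, which encodes an ADP-ribosyltransferase family member, and CDH13, the GPI-anchored cadherin, rose against TGFb by 3.23 ± 0.34 (adjusted p = 0.0325) and 2.41 ± 0.29 (adjusted p = 0.0428). CDH13 had read 3.52 to 4.07 on all other arrays and 6.24 on the AZA array. Between 5-AZA and TGFb 0.855% of all probe sets were called higher. Against untreated cells 5 of the 32 rose on the AZA array, namely ART3 (4.22), CDH13 (2.44), RECK (1.94), NT5E (1.66) and CD59 (1.21), and EFNA1 fell (−1.23), beside 2.24% and 1.41% of all probe sets. The EFNA1 call was lost with quantile normalization (adjusted p = 0.051).

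The enzymes that build the GPI tail and attach it were mostly level. Of 24 measured, PIGN and PIGA fell under TGFb, where 0.954% of all probe sets did, none rose, and the median difference was −0.08. PIGN, which adds a side group to the anchor's mannose, read 9.93 and 9.79 untreated, 8.21 and 8.09 with TGFb, 8.53 with 5-AZA and 9.78 after withdrawal. It was 1.71 ± 0.15 lower under TGFb (adjusted p = 0.0180) and rose by 1.63 ± 0.19 after withdrawal (adjusted p = 0.0445). PIGA, part of the enzyme that starts the anchor, fell by 1.28 ± 0.15 (adjusted p = 0.0328) and stood at 5.79 after withdrawal, between its TGFb and untreated values. Neither differed from TGFb with 5-AZA beyond the threshold, and against untreated cells PIGA (−1.19), PIGN (−1.33) and PGAP2 (−1.24) fell and PIGF rose (1.14). Between 5-AZA and untreated cells 2.24% of all probe sets were called higher and 1.41% lower. The share called higher between withdrawal and TGFb was 0.369%.

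The last list held proteases that could cut IgLON proteins from the membrane and reported partners of NEGR1, 11 genes in all. None was called under TGFb, where 0.691% of all probe sets were called higher and 0.954% lower. ADAM10, the protease reported to shed NEGR1, read 11.01 to 11.57 on all 6 arrays and differed by −0.33 under TGFb. NPC2, a cholesterol carrier reported to bind NEGR1, read 9.61 to 10.02. The receptor gene FGFR2, reported to signal with NEGR1, read 4.88 after withdrawal and 5.76 to 6.88 elsewhere, with no call. FGFR1 read 6.23 and 6.18 untreated, 6.70 and 6.45 with TGFb, 7.54 with 5-AZA and 4.89 after withdrawal, and fell between TGFb and withdrawal by 1.68 ± 0.20 (adjusted p = 0.0469). MMP2, a matrix protease, read 4.29 to 4.54 on 5 arrays and 7.17 on the AZA array, a rise of 2.75 ± 0.20 over TGFb (adjusted p = 0.00937). Against untreated cells both MMP2 (2.80) and FGFR1 (1.33) rose on the AZA array, where 2.24% of all probe sets were called higher. The share called lower between withdrawal and TGFb was 0.471%, and that called higher between 5-AZA and TGFb was 0.855%.

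Over the 4 lists 24 calls were made over the 5 comparisons, 15 of them between the AZA and untreated arrays, 11 higher and 4 lower of 107 genes, beside 2.24% and 1.41% of all probe sets. All 4 calls of 5-AZA against TGFb were higher, where 0.855% of all probe sets were called higher and 0.189% lower. The comparisons share the untreated or TGFb arrays, so their calls are not separate evidence. The genes with the largest differences in each list were not always called. Between 5-AZA and untreated cells IGSF11 differed by 2.96 (adjusted p = 0.0679). After withdrawal the netrin receptor gene NEO1 differed from untreated by −1.42 (adjusted p = 0.369), the prion protein gene PRNP by −0.96 (adjusted p = 0.335), PGAP1, whose enzyme trims the GPI tail, by −1.91 (adjusted p = 0.286) and FGFR2 by −1.51 (adjusted p = 0.369). PIGW, an enzyme of early anchor synthesis, differed by −0.91 between 5-AZA and TGFb (adjusted p = 0.527), and the protease gene BACE1 by 0.90 under TGFb (adjusted p = 0.265). With all probe sets tested no list gene passed between withdrawal and untreated cells. When only the brightest probe set of each named gene was tested, 1 was called lower there, and the list calls rose from 3 to 15 (6 higher, 9 lower) under TGFb, from 2 to 10 between withdrawal and TGFb, from 4 to 10 between 5-AZA and TGFb and from 15 to 23 between 5-AZA and untreated cells. Leaving out any 1 of the 4 replicated arrays kept between 2 and 5 of the 24 calls.

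**Figure D5:**
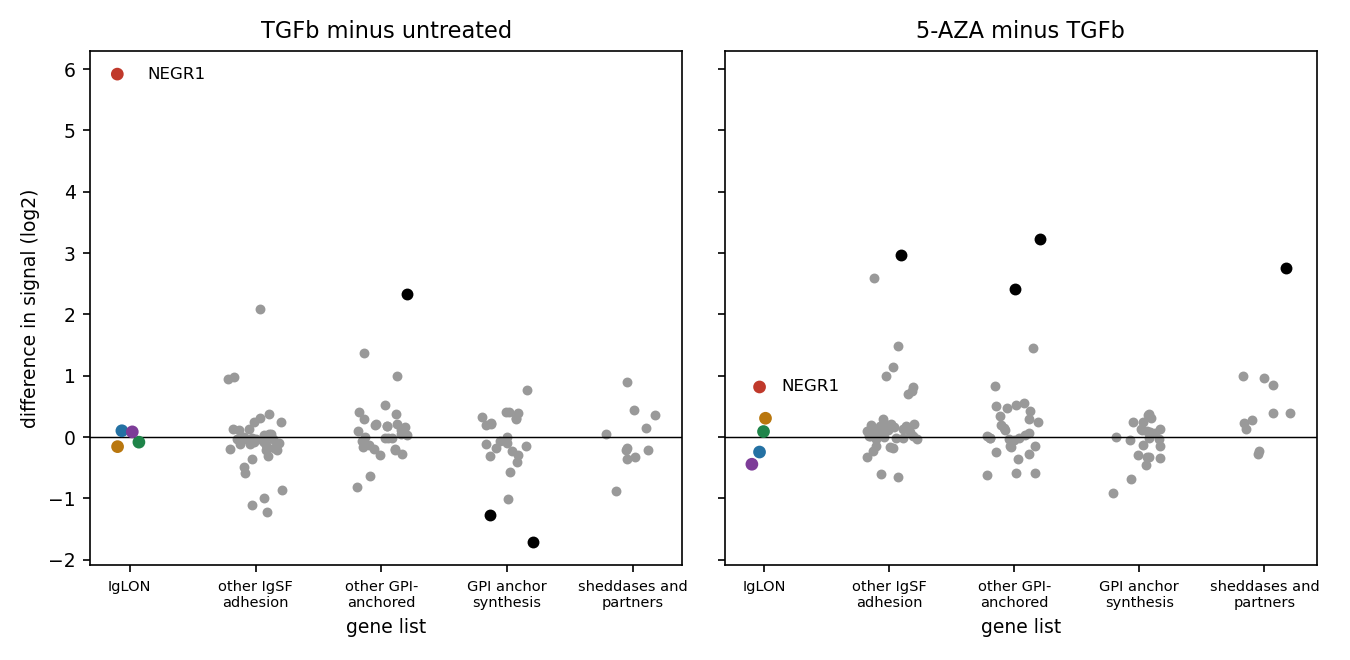
Difference in signal (log2, vertical axis) for TGFb minus untreated (left) and 5-AZA minus TGFb (right), 1 point per gene of the IgLON family and the 4 lists (horizontal axis). In the lists, black points passed the limma test and grey ones did not, and the coloured IgLON points carry no such mark. NEGR1 was chosen by the difference on the left, so its height above the lists there is a description only. NEGR1 stands at 5.92 on the left, above every list gene, and at 0.82 on the right, below 14 list genes, of which 4 were called (ROBO1, CDH13, ART3 and MMP2) and 10 were not.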

How the data were processed

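The authors' deposited table holds 1 log2 signal per probe set and array, made with Affymetrix Expression Console 1.2 per the submitters' processing notes. The log base was read from the range of the values (0.937 to 13.1), and how signals were summarised, background-corrected and normalized is not given in the sources used here. Values were used as deposited. Of 32293 probe sets 16545 carried 1 gene symbol, 370 several and 15378 none, and only the first kind was named.

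Comparisons came from 1 limma model (version 3.58.1, R 4.3.3) with a mean for each group, tested on simulated data first, with Benjamini-Hochberg adjustment over all probe sets and a threshold of 0.05. The simulated arrays of a probe set all had the same spread, so that trial could not check how the lone arrays vary. With 2 residual degrees of freedom (prior 3.1), the lone AZA and withdrawal arrays are assumed to vary like the replicated groups and precision is limited by how few arrays there are. The IgLON genes, the gene lists and the markers were chosen with earlier results of these data known. Named list genes were those called and the largest difference per comparison, except ADAM10, NPC2 and the markers named, which were chosen after their values were seen. The glia markers (5 of 9 measured) gave 0 calls under TGFb, and 7 of 11 kidney epithelial markers fell. Over all probe sets 0.691% were called higher and 0.954% lower under TGFb. Alternatives were quantile normalization, median centring, filters on probe sets, other moderation, the mean of a gene's probe sets, leaving out each replicate, and the replicate block.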

Additional observations from a re-analysis of the deposited data

How the results depend on the processing

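Every alternative run left NEGR1 at 5.90 to 5.95 for TGFb against untreated, −5.32 to −5.26 for withdrawal against TGFb, 0.78 to 0.87 for 5-AZA against TGFb (adjusted p from 0.0584 to 0.406) and 0.62 to 0.65 for withdrawal against untreated (adjusted p from 0.232 to 0.617). LSAMP, NTM and OPCML gave 156 values, with 0 calls by limma and 19 of opposite sign, the largest 0.315 in size. With the mean of its probe sets LSAMP gave −0.088 (TGFb against untreated), 0.20 (withdrawal against TGFb), 0.10 (5-AZA against TGFb), 0.11 (withdrawal against untreated) and 0.016 (5-AZA against untreated). NTM for withdrawal against untreated was −0.009 with quantile normalization and −0.001 with median centring, and for 5-AZA against untreated −0.04 with quantile normalization. Leaving out 1 replicate at a time, the TGFb difference ran from −0.052 to 0.26 for LSAMP, −0.18 to 0.012 for NTM and −0.32 to 0.48 for OPCML. Withdrawal against TGFb ran from −0.006 to 0.19 for NTM and −0.19 to 0.61 for OPCML, and 5-AZA against TGFb from −0.007 to 0.19 for NTM. Withdrawal against untreated ran from −0.16 to 0.15 for LSAMP and −0.032 to 0.045 for NTM, and 5-AZA against untreated from −0.30 to 0.01 and −0.034 to 0.044. The cause of these changes of sign was not tested. The count of calls under TGFb, 531 with all arrays, was 1001 without dim probe sets, 1228 on named genes alone, 70 and 129 without an untreated replicate, and 0 and 97 without TGFb replicate 1 or 2. Withdrawal against TGFb went from 271 to 649 and 907 with these filters and to 97, 97, 0 and 0 without a replicate. 5-AZA against TGFb went from 337 to 110 and 682, and to 137, 137, 0 and 0. 5-AZA against untreated went from 1178 to 1736 on named genes and to between 346 and 435 without a replicate, and withdrawal against untreated from 0 to 58 on named genes. With the replicate block on the untreated and TGFb arrays NEGR1 was 5.92 ± 0.16 and 712 probe sets were called. Deviations of same-numbered arrays correlated at 0.0988. With 2 arrays per group this value cannot show whether same-numbered arrays share a culture or a batch.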
